A study of Rattus norvegicus with 23 samples.

Results

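Fatty acid oxidation in rat kidney cells under acidosis was followed through 8 genes chosen by name: Cpt1a, Cpt2, Acadm, Acadl, Acadvl, Hadha, Hadhb and Ppargc1a. They were chosen with earlier results of these data known. They are 8 of 30452 genes in the deposited count table, and 7 of them passed the filter on low counts, as did 14777 genes in all. Ppargc1a did not pass. RNA came from the epithelial line NRK-52E (NRKE in the sample labels) and the fibroblast line NRK-49F (NRKF), both from rat kidney and each grown on its own. After 24 h without serum, the cells spent 48 h at pH 7.4, the control, or at pH 6.0, reached with HCl. NRK-52E cells gave n = 6 samples at each pH, and NRK-49F cells gave n = 6 at pH 7.4 and n = 5 at pH 6.0. A further label puts NRK-52E samples in sample group 1 or 3 and NRK-49F samples in sample group 4 or 6, without saying what separates these. The study calls its samples biological, but the labels do not say whether those of a group came from separate cultures. The p-values therefore measure only the spread between these samples, which may be technical.

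Long-chain fatty acids enter mitochondria bound to carnitine and are then shortened step by step by beta-oxidation. Carnitine palmitoyltransferases carry out the entry, acyl-CoA dehydrogenases start each round, and the mitochondrial trifunctional protein, built of the Hadha and Hadhb subunits, completes it for long chains. The acetyl-CoA that results feeds the citric acid cycle or, mainly in liver, the making of ketone bodies. The proximal tubule of the kidney draws much of its energy from fatty acids, and Ppargc1a encodes the coactivator PGC-1alpha, which works with PPAR and ERR factors on genes of this pathway. None of the 8 chosen genes encodes an enzyme of ketone body synthesis or use, so those genes were taken from a wider list.

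Total counts per sample ranged from 16412564 to 34250535. Levels are given in FPM (counts scaled to library size), which are not corrected for gene length, so levels of different genes are not compared with each other. At these depths a count of 3, used as the smallest level that can be shown, corresponds to 0.0839 to 0.203 FPM. The labels' cell types matched only some of their markers. Of the epithelial markers, Cdh1 and Epcam reached at most 12 counts and 1 count in any sample, Esrp1 was at 0 in every sample, and Krt8 had a higher mean level in NRK-49F cells (839 FPM at pH 7.4) than in NRK-52E cells (499 FPM). Tjp3 instead was higher in the epithelial line, at 11.1 to 26.3 FPM, than in NRK-49F samples, at 0.612 to 2.23 FPM. Of 7 proximal tubule markers, the factor Hnf4a and Slc34a1 were at 0 in all 12 NRK-52E samples. Lrp2, Cubn, Slc5a2 and Slc22a6 had at most 44 counts in a sample of this line. Aqp1 was at 24.2 to 118 FPM in NRK-52E samples and higher in NRK-49F samples, at 359 to 1263 FPM. All 10 fibroblast markers together summed to 6284 to 9775 FPM in NRK-52E and 11074 to 14287 FPM in NRK-49F samples at pH 7.4. At pH 6.0 the sums were 3142 to 3952 FPM and 7647 to 10289 FPM. Col3a1 and Col5a2 were higher in NRK-52E cells, Col3a1 at 4678 to 8037 FPM there at pH 7.4. The markers other than these summed to between 6949 and 12308 FPM in NRK-49F samples. In NRK-52E cells their sum was 65.5 to 223 FPM at pH 7.4, highest in A021, and 26.4 to 47.1 FPM at pH 6.0, with Thy1 and Dcn at 0 throughout. Of the 9 fibroblast markers tested, 8 fell at pH 6.0 in this line, where 36.6% of all tested genes fell. The part of this signal in other changes was not tested, and values without A021 are given for the chosen genes in NRK-52E cells and summarised for the wider list.

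Hadha and Hadhb lie next to each other on chromosome 6 and are read in opposite directions, with 300 bases between their start sites in RefSeq's annotation of the rat assembly GRCr8. This stretch is shown because both genes rose together in NRK-49F cells and not to that extent in NRK-52E cells. The 250 bases before the start of Hadha, chr6:31907551-31907800 on the plus strand of GRCr8, are printed 5′ to 3′, and the capitals mark the 200 bases that also lie within the 250 bases before the start of Hadhb.
Hadha upstream: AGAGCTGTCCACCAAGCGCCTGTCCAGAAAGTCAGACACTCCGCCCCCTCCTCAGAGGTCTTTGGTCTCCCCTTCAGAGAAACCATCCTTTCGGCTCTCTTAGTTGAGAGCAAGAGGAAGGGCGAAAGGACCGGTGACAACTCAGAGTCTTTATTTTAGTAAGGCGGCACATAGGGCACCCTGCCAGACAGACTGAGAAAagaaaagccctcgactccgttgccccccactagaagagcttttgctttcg
Promoter windows of RefSeq, 250 bases before to 50 after a start, were at hand for 7 of the 8 genes, all but Acadl. Searched on both strands, the direct repeat of PPAR with RXR, AGGTCA repeated after any base, was in 0 of these 7 windows and in 0.054% of all 33469 windows. The ERR motif TNAAGGTCA was in 0 of 7 windows against 1.198% of all, and the NRF1 motif, GCGCA and GCGC joined by any base, in 0 of 7 against 4.255%. The single unit AGGTCA, whose letters are part of the motifs of PPAR and ERR, was in the windows of Hadhb and Acadvl and in 16.179% of all windows. These are matches of letters only.

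**Figure D1:**
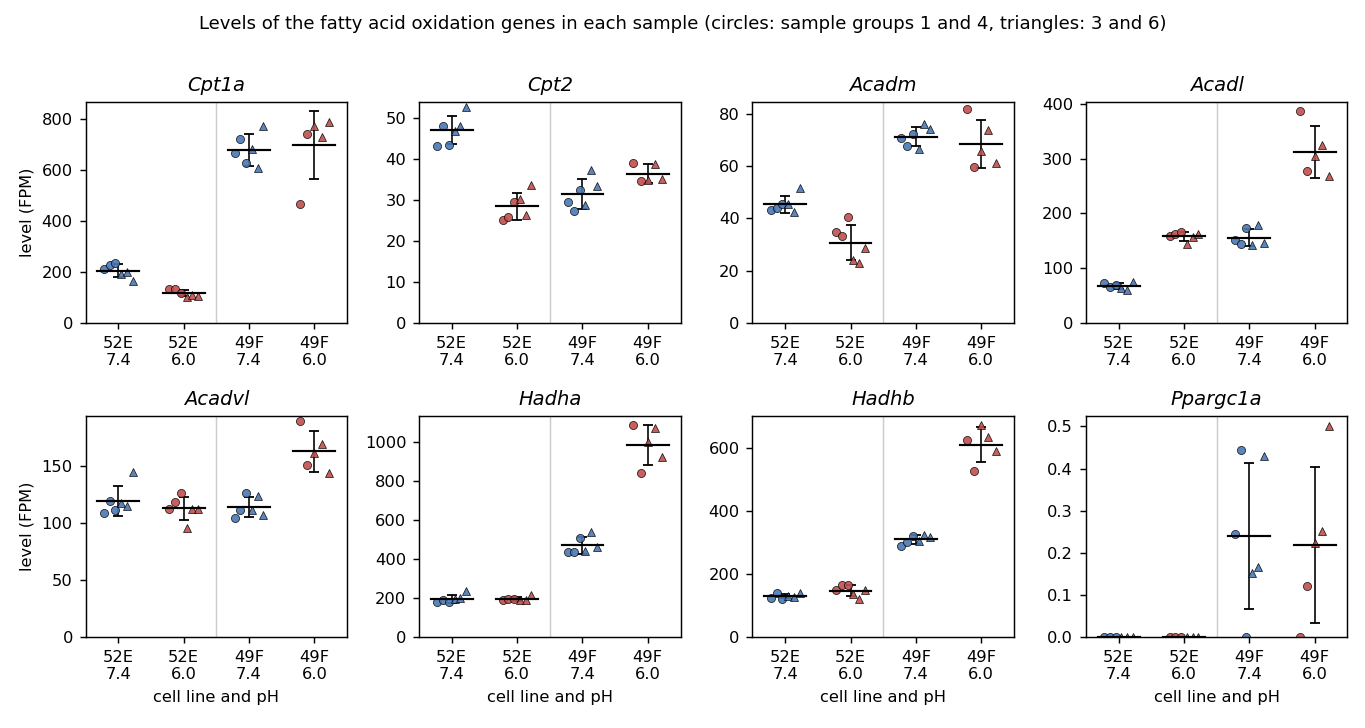
Level of each of the 8 genes in FPM (linear axis from 0) in every sample, by cell line (52E or 49F) and pH. Points are samples (circles for sample groups 1 and 4, triangles for 3 and 6), horizontal lines are means and bars are SD (n = 6, 6, 6 and 5). Acadl is higher at pH 6.0 in both lines, Cpt1a, Cpt2 and Acadm are lower at pH 6.0 in NRK-52E cells, and Hadha and Hadhb are higher at pH 6.0 in NRK-49F cells.

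The effect of acidosis on these genes was not the same in both lines. In NRK-52E cells at pH 6.0, the transferases Cpt1a and Cpt2 and the medium-chain dehydrogenase Acadm fell, while the long-chain dehydrogenase Acadl rose and Hadhb rose slightly. In NRK-49F cells, Acadl, Acadvl, Hadha and Hadhb rose and none of the 7 tested genes fell. By the quasi-likelihood test of edgeR, with Benjamini-Hochberg adjusted p-values over all tested genes, 5 of the 7 genes passed an adjusted p of 0.05 in NRK-52E cells, 2 higher and 3 lower. In this comparison 61.2% of all tested genes were called, 24.7% higher and 36.6% lower. In NRK-49F cells 4 of 7 passed, all higher, where 28.9% of all tested genes were called, 14.5% of them higher and 14.4% lower as shares of all tested genes. The response of NRK-52E minus the response of NRK-49F cells, tested as its own contrast, passed for 6 of 7 genes, all toward lower values in NRK-52E cells. That contrast was called for 41.4% of all genes, 24.7% in this direction and 16.8% in the other. The median log2 fold change over the 7 genes was −0.08 for NRK-52E and 0.51 for NRK-49F cells, beside −0.12 and 0.00 over all tested genes.

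Cpt1a encodes the liver form of carnitine palmitoyltransferase 1, which attaches carnitine to long-chain fatty acids at the outer mitochondrial membrane. In NRK-52E cells its level ranged from 163 to 236 FPM (median 206) at pH 7.4 and from 103 to 134 FPM (median 113) at pH 6.0. The ranges did not overlap, which held for 38.6% of all tested genes in this line. Cpt1a fell by 0.81 on the log2 scale (SE 0.12, edgeR adjusted p = 1.8e-06), and by 0.80 without A021. In NRK-49F cells it ranged from 605 to 771 FPM (median 672) at pH 7.4, and the samples at pH 6.0 gave 464, 738, 772, 728 and 785 FPM. The lowest of these, A042, lay under every control sample while 2 of the others lay just above all of them, and the log2 fold change was 0.04 (SE 0.12, edgeR adjusted p = 0.832). Without A042 the change in NRK-49F cells was 0.16. The responses of the lines differed by −0.85 (SE 0.17, edgeR adjusted p = 0.000222), though within sample groups 1 and 4 alone this difference was −0.66 (edgeR adjusted p = 0.0559).

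Cpt2, the partner at the inner membrane, which hands the fatty acid back to coenzyme A, moved like Cpt1a in NRK-52E cells. Its level there was 43.2 to 52.6 FPM (median 47.5) at pH 7.4 and 25.2 to 33.5 FPM (median 27.9) at pH 6.0, again without overlap. The log2 fold change was −0.73 (SE 0.09, edgeR adjusted p = 1.2e-07), and −0.75 without A021. In NRK-49F cells Cpt2 ranged from 27.4 to 37.4 FPM (median 30.9) at pH 7.4, and the samples at pH 6.0 had 39.1, 34.5, 34.8, 38.7 and 35.1 FPM. All samples at pH 6.0 lay in the upper part of the control range or above it, and the change of 0.21 did not pass the test (SE 0.09, edgeR adjusted p = 0.0792). It passed without A052, the highest control sample (0.27, edgeR adjusted p = 0.0234). The difference between the lines' responses was −0.94 (SE 0.12, edgeR adjusted p = 2.04e-06).

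Since the transferases act in series, the ratio of their counts within each sample, which no scaling affects, was compared between the pH values. The log2 ratio of Cpt1a to Cpt2 in NRK-52E cells was 2.11 ± 0.29 (SD, n = 6) at pH 7.4 and 2.04 ± 0.30 (n = 6) at pH 6.0 (exact two-sided permutation test, p = 0.671, adjusted over 6 ratio tests 0.671). For NRK-49F cells it was 4.43 ± 0.25 (n = 6) and 4.24 ± 0.39 (n = 5; exact permutation p = 0.364, adjusted 0.436). A shift of this ratio with pH was not detected in either line.

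The 3 acyl-CoA dehydrogenases, which differ in the chain length they prefer, went separate ways. Acadl, for long chains, rose in both lines. In NRK-52E cells it ranged from 60.2 to 75.4 FPM (median 67.5) at pH 7.4 and from 144 to 166 FPM (median 160.0) at pH 6.0. The log2 fold change was 1.22 (SE 0.09, edgeR adjusted p = 3.06e-11), and 1.24 without A021. In NRK-49F cells it ranged from 142 to 179 FPM (median 149) at pH 7.4 and was 388, 278, 305, 325 and 268 FPM at pH 6.0. No sample at pH 6.0 reached down to the control range in either line, and in NRK-49F cells 20.6% of all tested genes likewise had ranges that did not overlap. The log2 fold change was 1.00 (SE 0.09, edgeR adjusted p = 9.52e-09). The responses differed by 0.22 between the lines (SE 0.12, edgeR adjusted p = 0.165), a difference that passed the threshold without A042, the highest sample (0.31, edgeR adjusted p = 0.0303). In order of level, NRK-52E cells at pH 7.4 were lowest, NRK-52E cells at pH 6.0 and NRK-49F cells at pH 7.4 lay in overlapping ranges, and NRK-49F cells at pH 6.0 were highest.

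Acadm, the dehydrogenase for medium chains, fell in NRK-52E cells, and its change in NRK-49F cells did not pass the test. Its level in the epithelial line ranged from 42.6 to 51.5 FPM (median 44.7) at pH 7.4 and from 22.9 to 40.6 FPM (median 31.0) at pH 6.0, without overlap. The log2 fold change was −0.56 (SE 0.11, edgeR adjusted p = 0.000146), and −0.57 without A021. The samples at pH 6.0 stood apart by sample group, with 34.9, 33.2 and 40.6 FPM in group 1 and 23.9, 22.9 and 28.8 FPM in group 3. The change was −0.28 in group 1 and −0.88 in group 3, and these differed by −0.60 (SE 0.17, edgeR adjusted p = 0.0267), as the pH responses of sample groups did for 10.6% of all tested genes in this line. When group 1 was analysed with group 4 alone, the fall of Acadm did not pass (−0.28, edgeR adjusted p = 0.0784). In NRK-49F cells Acadm ranged from 66.7 to 76.2 FPM (median 71.5) at pH 7.4 and was 81.8, 59.7, 65.6, 73.8 and 61.3 FPM at pH 6.0, on both sides of the controls (−0.06, SE 0.12, edgeR adjusted p = 0.751). The difference between the lines was −0.50 (SE 0.16, edgeR adjusted p = 0.0154), and −0.29 within sample groups 1 and 4 (edgeR adjusted p = 0.293).

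Acadvl, for very long chains, was at 109 to 145 FPM (median 116) at pH 7.4 and 95.7 to 127 FPM (median 113) at pH 6.0 in NRK-52E cells. These ranges overlapped for most samples, and the change was −0.08 (SE 0.08, edgeR adjusted p = 0.412), and −0.11 without A021. In NRK-49F cells Acadvl ranged from 104 to 127 FPM (median 112) at pH 7.4, and the samples at pH 6.0 had 189, 151, 162, 169 and 144 FPM. Every sample at pH 6.0 was above every control there, with a log2 fold change of 0.51 (SE 0.09, edgeR adjusted p = 7.74e-05). The lines' responses differed by −0.59 (SE 0.12, edgeR adjusted p = 0.000341).

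The log2 ratio of the counts of Acadl and Acadm within each sample is given as a description, since it was chosen after the changes of both genes were seen, and in NRK-49F cells only Acadl changed by the test. In NRK-52E cells it went from 0.58 ± 0.10 (SD, n = 6) at pH 7.4 to 2.39 ± 0.28 (n = 6) at pH 6.0. The same ratio went in NRK-49F cells from 1.12 ± 0.10 (n = 6) to 2.19 ± 0.05 (n = 5). In both lines the lowest ratio at pH 6.0 (2.03 and 2.13) was above the highest at pH 7.4 (0.75 and 1.25). At pH 7.4 the ratios of the lines did not overlap, with at most 0.75 in NRK-52E and at least 0.98 in NRK-49F cells, while at pH 6.0 they did, reaching up to 2.77 for NRK-52E and 2.24 for NRK-49F cells.

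**Figure D2:**
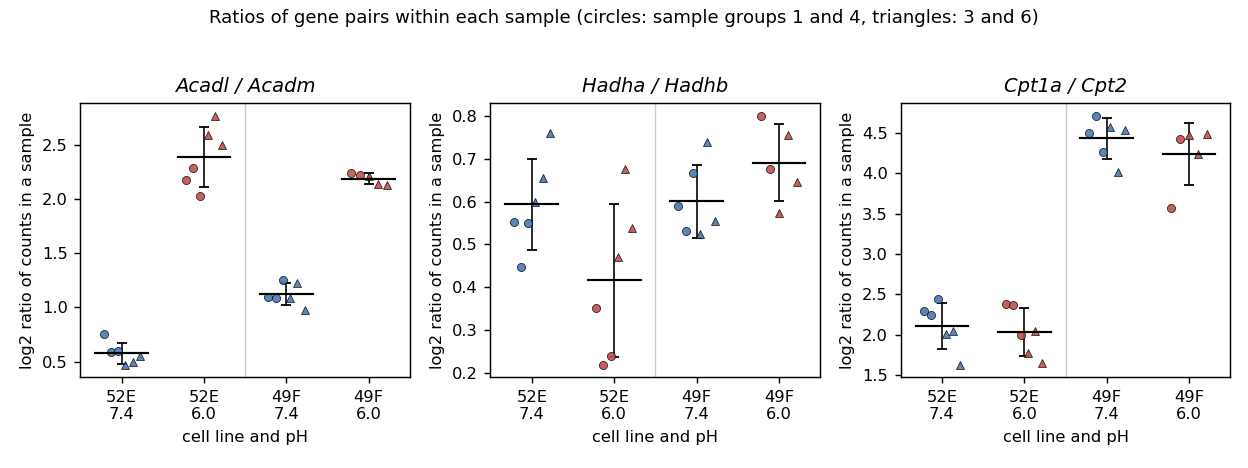
Log2 ratio of the counts of 2 genes within a sample (the axes do not start at 0), by cell line and pH, for Acadl over Acadm, Hadha over Hadhb and Cpt1a over Cpt2. Points are samples (circles for sample groups 1 and 4, triangles for 3 and 6), lines are means and bars are SD. The ratio of Acadl to Acadm separates the pH values completely in both lines, from 0.58 to 2.39 in the epithelial line and from 1.12 to 2.19 in the fibroblasts, and the other ratios overlap between pH values.

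Hadha encodes the alpha subunit of the trifunctional protein, with the enoyl-CoA hydratase and hydroxyacyl-CoA dehydrogenase activities for long chains. In NRK-52E cells it was at 179 to 236 FPM (median 194) at pH 7.4 and at 189 to 217 FPM (median 193) at pH 6.0. These medians lay side by side and the change was −0.01 (SE 0.08, edgeR adjusted p = 0.940), and −0.03 without A021. In NRK-49F cells Hadha ranged from 434 to 541 FPM (median 452) at pH 7.4, and the samples at pH 6.0 had 1087, 841, 1001, 1071 and 922 FPM. All samples at pH 6.0 were far above the controls, and the log2 fold change of 1.06 (SE 0.09, edgeR adjusted p = 2.02e-09) was about the same in sample groups 4 and 6 (1.07 and 1.05). The difference between the lines' responses, −1.07 (SE 0.12, edgeR adjusted p = 1.7e-07), was the largest among the 7 genes.

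Hadhb, the beta subunit with the thiolase activity, showed the same contrast between the lines. In NRK-49F cells it ranged from 289 to 324 FPM (median 311) at pH 7.4 and was 624, 526, 673, 634 and 590 FPM at pH 6.0, with no overlap. The log2 fold change was 0.98 (SE 0.08, edgeR adjusted p = 2.69e-09). In NRK-52E cells the levels were 122 to 140 FPM (median 129) at pH 7.4 and 120.0 to 167 FPM (median 149) at pH 6.0, and the ranges overlapped. The rise of 0.18 passed the threshold narrowly (SE 0.08, edgeR adjusted p = 0.0456). It was 0.32 in sample group 1 and 0.04 in group 3 (difference −0.28, edgeR adjusted p = 0.200), and it did not pass without A021 (0.17, edgeR adjusted p = 0.0881). Leaving out any of A023, A024, A025, A026, A033, A034, A038, A041, A051, A053, A055 or A056 likewise left it short of the threshold, with adjusted p up to 0.112. The lines' responses differed by −0.80 (SE 0.11, edgeR adjusted p = 4.49e-06).

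A shift in the ratio of the 2 subunits' counts with pH was not detected. Its log2 value was 0.60 ± 0.09 (SD, n = 6) at pH 7.4 and 0.69 ± 0.09 (n = 5) at pH 6.0 in NRK-49F cells (exact two-sided permutation test, p = 0.123, adjusted 0.185). In NRK-52E cells it was 0.59 ± 0.11 (n = 6) and 0.42 ± 0.18 (n = 6; exact permutation p = 0.0714, adjusted 0.143). This test pooled sample groups 1 and 3, where Hadhb changed by 0.32 and 0.04 and Hadha by 0.07 and −0.08. A shift of the ratio within a single sample group was not tested. Over all 23 samples Hadha and Hadhb had a Pearson coefficient of 0.990 on log2(FPM + 1), to which the differences between lines and pH values contribute. With the mean of each line and pH removed the coefficient was 0.524. Those of Cpt2 with Hadha (0.794), Acadl with Acadvl (0.760) and Acadvl with Hadha (0.745) were higher. Differences between sample groups and single outlying samples remain in these values.

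**Figure D3:**
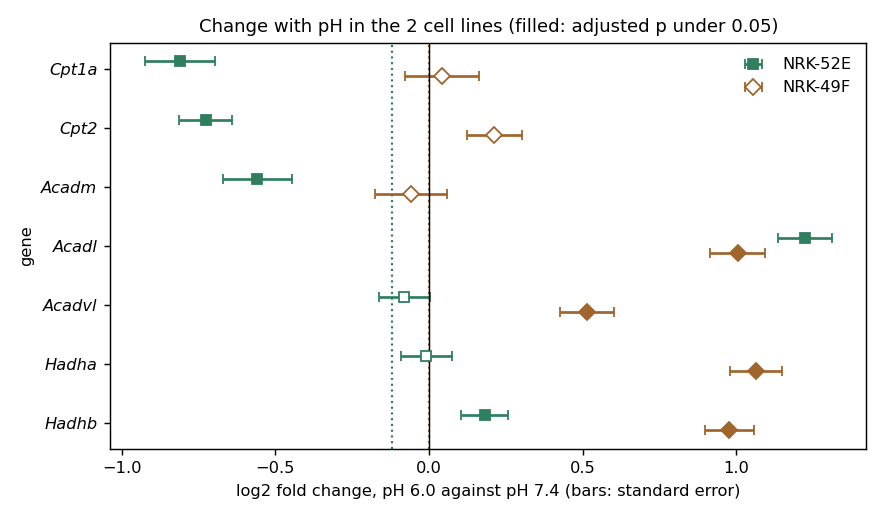
Log2 fold change from pH 7.4 to pH 6.0 (horizontal axis) of the 7 tested genes in NRK-52E cells (squares) and NRK-49F cells (diamonds), from the edgeR fit of 23 samples. Bars are standard errors, filled symbols have an adjusted p under 0.05, and dotted lines are the medians of all tested genes (−0.12 and 0.00). Acadl lies to the right in both lines at 1.22 and 1.00, and Hadha is at −0.01 for the epithelial line and 1.06 for the fibroblasts.

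Ppargc1a was close to absent from these libraries. It had 0 counts in all 12 samples of NRK-52E cells, where 3 counts would correspond to 0.138 FPM at pH 7.4 and 0.147 FPM at pH 6.0 on average. In NRK-49F cells the samples had 7, 10, 0, 4, 5 and 8 counts at pH 7.4 and 0, 2, 6, 7 and 9 counts at pH 6.0. The means were 0.240 ± 0.173 FPM (SD, n = 6) and 0.219 ± 0.185 FPM (n = 5), and the samples of both pH values overlapped. A change with pH was not detectable at this depth. Its relative Pprc1 passed the filter and is described with the control genes.

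The lines also differed from each other at each pH. At pH 7.4, 6 of the 7 genes passed the test, with Cpt2 higher in NRK-52E cells (0.58, SE 0.09, edgeR adjusted p = 1.87e-06) and Cpt1a, Acadm, Acadl, Hadha and Hadhb lower, with log2 differences from −0.65 to −1.73. Here 68.8% of all tested genes were called, 35% higher and 33.9% lower in NRK-52E cells. Acadvl was at 120 FPM on average in NRK-52E and 114 FPM in NRK-49F cells, with a log2 difference of 0.07 (SE 0.08, edgeR adjusted p = 0.492). At pH 6.0 all 7 were lower in NRK-52E cells, where 75.5% of all tested genes were called and 38.9% lower. The differences at pH 6.0 were −2.58 for Cpt1a, −2.33 for Hadha, −2.04 for Hadhb, −1.15 for Acadm, −0.98 for Acadl, −0.53 for Acadvl and −0.36 for Cpt2. Cpt2 was the only one of the 7 called in opposite directions, higher in NRK-52E cells at pH 7.4 and lower at pH 6.0. The latter difference did not pass between group 3 of NRK-52E and group 6 of NRK-49F cells (−0.27, edgeR adjusted p = 0.0625). No sample group holds both lines and the labels do not pair the groups, so line and sample group cannot be told apart here.

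Beside these genes stands a wider list of 76 genes of the pathway, of which 74 were in the table and 66 were tested. Of these, 20 rose and 21 fell in NRK-52E cells (62.1% called), while 23 rose and 8 fell in NRK-49F cells (47%), beside the shares of 61.2% and 28.9% over all genes. Within sample groups 1 and 4 alone, 20 genes instead of 31 passed in NRK-49F cells. Calls over all tested genes fell there too, from 4270 of 14777 to 2976 of 15273. Without A021, 38 genes instead of 41 passed in NRK-52E cells, beside 8587 of 14663 instead of 9049 of 14777 over all. Of the genes named as changed in that line Slc25a20 alone lost its call. The median log2 fold change of the wider list was 0.01 in NRK-52E and 0.15 in NRK-49F cells, with −0.12 and 0.00 for all tested genes. The difference between the responses passed for 29 of the 66 (43.9%), 7 higher and 22 lower in NRK-52E cells. That contrast was called for 41.4% of all tested genes, 16.8% higher and 24.7% lower. The shares called with pH are close to the background in NRK-52E cells and above it in NRK-49F cells. The share called for the difference is close to its background. The lists were chosen with earlier results of these data known and were not tested as sets.

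**Figure D4:**
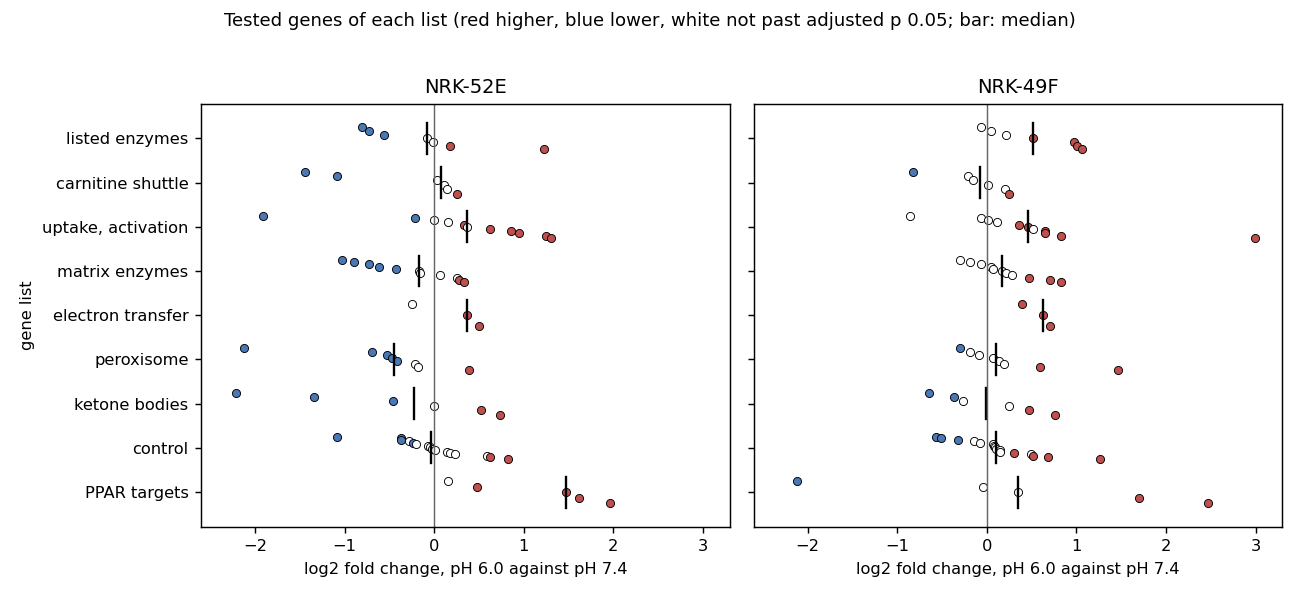
Log2 fold change from pH 7.4 to pH 6.0 (horizontal axis) of each tested gene by list (vertical axis) in NRK-52E and NRK-49F cells. Each point is a gene (red higher, blue lower, white not past an adjusted p of 0.05) and each bar a list's median. Among the peroxisomal genes 5 of 8 fell in the epithelial line and 1 of 8 in the fibroblasts, and all 3 electron transfer genes were called higher in NRK-49F cells, Etfb and Etfdh not under every alternative. Over all tested genes 36.6% were lower in NRK-52E cells, and 14.4% were lower and 14.5% higher in NRK-49F cells.

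Of 6 other genes of carnitine entry and acyl transfer, 1 rose and 2 fell in NRK-52E cells, and 1 rose and 1 fell in NRK-49F cells. The shares called, 50% and 33.3%, stood beside 61.2% and 28.9% of all tested genes. In NRK-52E cells Crot, the carnitine acyltransferase of peroxisomes, was at 42.6 ± 4.3 FPM at pH 7.4 and 15.7 ± 3.1 FPM at pH 6.0 (SD, n = 6), a drop with a log2 value of −1.44 (SE 0.10, edgeR adjusted p = 3.28e-11). Its level in NRK-49F cells was 120 ± 8.4 FPM (n = 6) and 107 ± 7.5 FPM (n = 5), a change that did not pass (edgeR adjusted p = 0.274). Slc25a20, the carrier that brings acylcarnitines through the inner membrane, rose slightly from 63.2 to 75.2 FPM in NRK-52E samples (0.25, edgeR adjusted p = 0.0229). This call was lost without A021, A023 or A038 (edgeR adjusted p up to 0.0621) and within sample groups 1 and 4 (0.0612) or 3 and 6 (0.106). Crat, an acetyltransferase of the mitochondrion, rose in NRK-49F cells from 72.6 to 86.4 FPM (0.25, edgeR adjusted p = 0.0318). Its call was lost in 10 alternatives, among them those without A039, A040, A042, A051, A053 or A055 (edgeR adjusted p up to 0.121) and those within sample groups 1 and 4 (0.0912) or 3 and 6 (0.196). Cpt1b, the muscle form of the Cpt1a enzyme, fell in both lines, from 12.3 to 5.83 FPM in NRK-52E cells (−1.08) and from 4.08 to 2.30 FPM in NRK-49F cells (−0.83), where it did not pass within sample groups 1 and 4 (−0.71, edgeR adjusted p = 0.118).

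Uptake and activation of fatty acids had 11 genes tested. In NRK-52E cells 6 rose and 2 fell, beside 24.7% higher and 36.6% lower among all tested genes, and in NRK-49F cells 6 rose and none fell, beside 14.5% and 14.4%. Acsl4, which links coenzyme A to polyunsaturated fatty acids, rose in the epithelial line, from 27.9 ± 4.4 at pH 7.4 to 69.1 ± 5.9 FPM at pH 6.0 (n = 6 at each pH, ± SD, change 1.31, SE 0.10). Its rise in NRK-49F cells, from 50.6 to 64.9 FPM, was smaller (0.36, SE 0.10), and the difference passed the test (0.95, edgeR adjusted p = 6.08e-06). The rise in NRK-49F cells did not pass within sample groups 1 and 4 (0.26, edgeR adjusted p = 0.225) or with unscaled library sizes (0.32, edgeR adjusted p = 0.0522). Acot2, a thioesterase of the matrix, rose in both lines (1.24 and 0.83), and its NRK-52E samples at pH 6.0 split by sample group, with 34.04, 32.3 and 34.6 FPM in group 1 and 91.4, 87.3 and 88.8 FPM in group 3. The change in the epithelial line was 0.51 within sample groups 1 and 4 and 1.67 within 3 and 6. Slc27a1, a fatty acid transporter, fell from 91.2 to 78.7 FPM in the epithelial line (−0.21, edgeR adjusted p = 0.00149), a call lost within sample groups 1 and 4 (−0.19, edgeR adjusted p = 0.111) and with that line fitted alone (−0.12, edgeR adjusted p = 0.119).

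Among 11 further enzymes of the mitochondrial matrix, 2 rose and 5 fell in NRK-52E cells, while 3 rose and none fell in NRK-49F cells. These are 63.6% and 27.3% of the list, beside 61.2% and 28.9% of all tested genes. Hadh, the dehydrogenase for shorter hydroxyacyl chains, was at 62.0 to 71.8 FPM at pH 7.4 and at 27.1 to 35.5 FPM at pH 6.0 in NRK-52E cells (−1.03, SE 0.08, edgeR adjusted p = 5.77e-11). The fibroblasts had 73.95 ± 5.9 and 83.0 ± 7.3 FPM (SD; 0.17, edgeR adjusted p = 0.114), so the lines differed by −1.20 (edgeR adjusted p = 1.01e-08). Echs1, the short-chain hydratase, rose from 133 to 168 FPM in NRK-52E samples (0.33, edgeR adjusted p = 0.00358), but not within sample groups 1 and 4 (0.27, edgeR adjusted p = 0.0711). Acad11, another acyl-CoA dehydrogenase, rose in NRK-49F cells from 60.02 to 106 FPM (0.82, SE 0.09), where the lowest sample at pH 6.0 had 100.9 FPM and the highest control 65.7 FPM.

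The electron transfer flavoprotein and its dehydrogenase pass electrons from the acyl-CoA dehydrogenases to the respiratory chain. By the test on all samples, all 3 genes rose in NRK-49F cells and 2 of 3 in NRK-52E cells, though in NRK-49F cells the calls of Etfdh and Etfb did not hold under every alternative. Among all tested genes, 14.5% were higher in NRK-49F cells and 24.7% in NRK-52E cells. Etfdh rose from 73.8 to 104 FPM in NRK-52E cells (0.50, SE 0.08) and from 80.4 to 105.3 FPM in NRK-49F cells (0.39, SE 0.08), and the latter did not pass within sample groups 1 and 4 (0.33, edgeR adjusted p = 0.0597). Etfb rose in NRK-49F cells from 10.9 ± 2.9 (SD, n = 6) to 17.8 ± 5.8 FPM (n = 5), with wide and overlapping ranges (0.71, SE 0.23, edgeR adjusted p = 0.0211). It did not pass without A039, A042 or A055 (edgeR adjusted p up to 0.0849), nor within sample groups 1 and 4 (0.88, 0.0620) or 3 and 6 (0.57, 0.216).

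Peroxisomes shorten very long chains before mitochondria take over. Of 8 tested genes, 1 rose and 5 fell in NRK-52E cells, and 2 rose and 1 fell in NRK-49F cells. That is 75% and 37.5% called, beside 61.2% and 28.9% of all tested genes, with 36.6% of all lower in NRK-52E cells. Scp2, which encodes a peroxisomal thiolase and the sterol carrier protein, had the largest fall of them in NRK-52E cells, with 763 ± 50 FPM at pH 7.4 and 175 ± 31 FPM at pH 6.0 (SD, n = 6; −2.12, SE 0.11, edgeR adjusted p = 1.56e-13). In NRK-49F cells its level was 126 ± 13 and 111 ± 16 FPM, without a call (edgeR adjusted p = 0.231). Pex11a, a factor of peroxisome division, rose in NRK-49F cells from 14.9 ± 1.1 to 41.3 ± 2.1 FPM (1.47, SE 0.12) and fell from 8.30 ± 0.34 to 5.76 ± 1.40 FPM in the epithelial line (−0.53, SE 0.12). There the samples at pH 6.0 split by sample group, with 7.33, 7.16 and 6.32 FPM in group 1 and 5.34, 3.97 and 4.44 FPM in group 3. The fall was −0.89 within groups 3 and 6, and within groups 1 and 4 it did not pass (−0.23, edgeR adjusted p = 0.129).

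Of 6 tested genes of ketone body synthesis and use, 2 rose and 3 fell in NRK-52E cells, and 2 rose and 2 fell in NRK-49F cells. Calls thus made up 83.3% and 66.7% of this short list, beside 61.2% and 28.9% of all tested genes. Acat1, a thiolase of both synthesis and use, fell from 212 to 155 FPM in the epithelial line (−0.46) and rose in NRK-49F cells from 97.5 to 166 FPM (0.77). Oxct1, the transferase that lets tissues burn ketone bodies, went the other way, from 36.7 to 60.9 FPM in NRK-52E cells (0.73) and from 31.7 to 24.6 FPM in NRK-49F cells (−0.36). Bdh1, the mitochondrial hydroxybutyrate dehydrogenase, rose from 6.56 to 9.43 FPM in the epithelial line (0.52) and was at 5.88 and 4.90 FPM in NRK-49F cells (edgeR adjusted p = 0.177). Bdh2, its cytosolic relative, fell in both lines (−1.34 and −0.64).

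Of 16 tested control genes, 2 rose and 4 fell in NRK-52E cells, and 4 rose and 3 fell in NRK-49F cells. In NRK-52E cells this was 37.5% of the list, under the 61.2% of all tested genes. In NRK-49F cells it was 43.8%, over the 28.9% of all. Pprc1, a coactivator related to Ppargc1a, rose from 26.9 ± 2.4 to 47.7 ± 5.6 FPM in the epithelial line (0.82, SE 0.10) and fell in NRK-49F cells from 41.98 to 33.6 FPM (−0.32, SE 0.11). The fall was not called within sample groups 1 and 4 (−0.14, edgeR adjusted p = 0.480) nor without A040, A051, A053, A054 or A055 (edgeR adjusted p up to 0.0894). Ppard, the PPAR form found in most tissues, rose about equally, by 0.63 and 0.69 (difference −0.06, SE 0.12, edgeR adjusted p = 0.711). Sirt1, a deacetylase that acts on PGC-1alpha, fell from 31.1 to 14.7 FPM in NRK-52E cells (−1.09) and from 15.9 to 11.2 FPM in NRK-49F cells (−0.51). Nrip1, a corepressor, fell in NRK-49F cells from 12.3 to 8.27 FPM (−0.57). Within sample groups 3 and 6 the falls of Sirt1 and Nrip1 in NRK-49F cells did not pass (edgeR adjusted p = 0.0689 and 0.184).

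Among 5 tested known targets of PPAR factors, 4 rose and none fell in NRK-52E cells, and 2 rose and 1 fell in NRK-49F cells. These 80% and 60% stood beside 61.2% and 28.9% of all tested genes. The 4 include Ucp3, with at most 11 counts in an NRK-52E sample. The gene that fell was Pdk4, near the floor in NRK-49F cells. Its call was lost without A051 (edgeR adjusted p = 0.0505) and within sample groups 1 and 4 (0.131). Plin2, a coat protein of lipid droplets, rose in NRK-49F cells from between 96.9 and 162 FPM at pH 7.4 to between 316 and 473 FPM at pH 6.0 (1.70, SE 0.12, edgeR adjusted p = 1.38e-10). In NRK-52E cells it was at 71.7 and 80.0 FPM (0.16, edgeR adjusted p = 0.227). Pdk4, a kinase that holds back pyruvate dehydrogenase and so favours fatty acids as fuel, went up in NRK-52E samples, with 10.3 ± 1.3 FPM at pH 7.4 and 28.5 ± 5.7 FPM at pH 6.0 (SD, n = 6; 1.47, SE 0.25). In NRK-49F cells it had 60 counts over 6 samples at pH 7.4 and 10 over 5 samples at pH 6.0, with up to 31 in a single control sample (A051), too few for a fold change to be given.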

How the data were processed

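Poly(A) RNA of the 23 rat samples was sequenced in read pairs. The deposited values are raw counts per gene, which the authors made with HISAT2 2.1.0 and featureCounts over exons, reads with several mapping places among them, so near-identical copies of a gene may share reads. The labels name the genome build rn6 and the paper's methods rn7. The strand setting is not given in the sources used here. Another 13 columns of the table matched no sample label and were not used.

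All samples entered 1 fit with 4 conditions in edgeR 4.0.16 (R 4.3.3). Genes were kept by filterByExpr (minimum count 10, minimum total 15), libraries were scaled by TMM, and contrasts were tested by the quasi-likelihood test with Benjamini-Hochberg adjustment over 14777 genes, at a threshold of 0.05. No replicate code occurs at both pH values, so comparisons were unpaired. FPM were computed from TMM-scaled library sizes. Depth was 16412564 to 34250535 counts per sample, and limits from 3 counts cover counting error only. Ratios of counts were compared by exact permutation tests, adjusted over 6 tests. The tests of Acadl to Acadm are among these 6, but that ratio is only described. No 2 samples of a group differed by less than sampling noise.

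The 8 genes and all lists were chosen with earlier results of these data known. From each wider list the text names, per cell line, the gene with the largest rise and the largest fall among those called whose mean reached 5 FPM, and the ketone body genes. A few genes that entered these tests and counts are not reported here singly. Alternatives were RLE scaling, no scaling, other filters, the likelihood ratio test, DESeq2 1.42.0 alone or with edgeR, each line alone, sample group as a block or alone, and each replicate left out. The unscaled library sizes, the test between sample groups, the count ratios and the search for single AGGTCA units were added after seeing the data. The procedure was tested on simulated data with few changed genes, balanced between rises and falls, and no differences between sample groups. That setting is unlike NRK-52E cells here, so it does not test the scaling under changes this broad. Figures were drawn with matplotlib 3.10.9 (Python 3.11.15).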

Additional observations from a re-analysis of the deposited data

Results flagged for a closer look

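In 11 of 126 groups of samples looked at, 1 sample stood far from the others of its group by Dixon's test, which chance alone does in about 1 of 20 groups. Among the chosen genes these were Cpt1a in A042 (464 FPM, nearest sample 728), Acadm in A035 (51.5 FPM), Acadvl in A035 (145 FPM) and Hadha in A038 (217 FPM). In the wider list they were Acot2 in A041 (22.6 FPM) and A042 (47.1 FPM), Etfdh in A042 (91.0 FPM), Etfb in A035 (21.2 FPM), Sirt1 in A056 (14.2 FPM), Nrip1 in A037 (5.35 FPM) and Pdk4 in A051 (1.17 FPM). A042, of NRK-49F cells at pH 6.0, appears 3 times and has the lowest scaling factor of all samples (0.804). A035, of NRK-52E cells at pH 7.4, also appears 3 times.

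The pH response in NRK-52E cells differed from that in NRK-49F cells by edgeR's contrast for 6 of the chosen genes and for other named genes. Of all tested genes, 41.4% were called in this contrast, 24.7% lower and 16.8% higher in NRK-52E cells. The differences of the chosen genes were −0.85 for Cpt1a, −0.94 for Cpt2, −0.50 for Acadm, −0.59 for Acadvl, −1.07 for Hadha and −0.80 for Hadhb. Toward lower values in NRK-52E cells they were also −1.28 for Crot, −0.32 for Slc27a1, −1.20 for Hadh, −0.76 for Acad11, −0.96 for Etfb, −1.94 for Scp2, −1.995 for Pex11a, −1.22 for Acat1, −0.70 for Bdh2, −0.57 for Sirt1 and −1.54 for Plin2. Toward higher values they were 0.95 for Acsl4, 1.09 for Oxct1, 0.78 for Bdh1 and 1.15 for Pprc1. Within sample groups 1 and 4 the differences of Cpt1a, Acadm, Slc27a1, Etfb, Bdh2 and Bdh1 did not pass, nor within groups 3 and 6 those of Etfb and Sirt1. Between sample groups, the response of Acadm in NRK-52E cells differed by −0.60 (edgeR adjusted p = 0.0267), a test that called 10.6% of all tested genes.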

How the results depend on the processing

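Within sample groups 1 and 4 alone, a fit on fewer samples, 20 genes of the wider list passed in NRK-49F cells and 19 in the contrast of the responses, where all samples gave 31 and 29. Over all genes, 2976 and 3248 of 15273 tested passed in that fit, where all samples gave 4270 and 6120 of 14777. For the chosen genes, 1145 of the alternative values stayed on the same side of the threshold, 20 lost and 4 gained the call, and no called value changed sign. Of the 1145, 15 changed sign without a call, 9 of them for Hadha, 2 for Acadvl in NRK-52E cells and 2 for Cpt1a in NRK-49F cells. Beside those named with their genes, Hadhb in NRK-52E cells lost its call without a filter (edgeR adjusted p = 0.0540) and within sample groups 3 and 6 (0.780). With library sizes left unscaled, Acadl gained the difference between responses (0.26, edgeR adjusted p = 0.0229), Acadvl differed between the lines at pH 7.4 (0.25, edgeR adjusted p = 0.000828) and Cpt2 lost its difference at pH 6.0 (−0.14, edgeR adjusted p = 0.0778). That choice moved the median of all genes between the lines from 0.02 to 0.21 at pH 7.4 and the calls from 5166 higher and 5004 lower to 6371 and 3910, and at pH 6.0 from 5401 and 5754 to 6455 and 4819. With NRK-52E cells fitted alone, their median change went from −0.12 to 0.00, and Cpt1a, Cpt2, Acadm, Acadl and Hadhb kept their calls at −0.72, −0.64, −0.47, 1.31 and 0.27. Of the named genes of the wider list, 2368 values stayed on the same side of the threshold, 44 lost the call and 8 gained it. No paired analysis was possible because replicate codes are not shared between groups. Depth limits Ppargc1a and, in NRK-49F cells, Pdk4.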

Other observations

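Over the 23 samples, each chosen gene was set beside 10236 other genes with a symbol and a mean of at least 5 FPM by Pearson's coefficient of log2(FPM + 1). These coefficients are descriptions, since the points share lines and pH values. Cpt1a was most like Zfp36l2 (0.995) and Plekha5 (0.994), and Acadm most like Nsmce2 (0.983). Acadl was most like Desi1 (0.979) and Procr (0.975), and Cpt2, with lower values, most like Gde1 (0.931) and Aga (0.928). For Acadvl they were Prdx1 (0.942) and AABR07012795.1 (0.937). Hadha was most like Klhl40 (0.994), followed by Hadhb (0.990), and Hadhb was most like Amz2 (0.991), followed by Hadha.

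The NRF1 motif, in none of the 7 windows of chosen genes, was in the promoter windows of 6 of 67 genes of the wider list, Etfb, Etfdh, Abcd3, Ppara, Slc22a5 and Acad10, beside 4.255% of all windows. The direct repeat of PPAR with RXR and the ERR motif were in 0 of these 67 windows, beside 0.054% and 1.198% of all. The single unit AGGTCA was in 12 of the 67, beside 16.179% of all.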
